A study of Mus musculus with 4 samples.

Results

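The 8 genes of the vascular endothelial growth factor (VEGF) and angiopoietin pathway described here were taken by name, as *Vegfa*, *Angpt1* and *Angpt2* (ligands) and *Kdr*, *Flt1*, *Nrp1*, *Tek* and *Tie1* (receptors), from the 16892 genes of a single-cell atlas of the mouse epididymis and vas deferens, and all 8 were in the matrix. The atlas asked which cells make up the ducts in which sperm mature. Tissue came from 8 epididymides of 4 male FVB/NJ mice aged 10 to 12 weeks, cut into caput, corpus, cauda and vas deferens, and the 8 pieces of each region were pooled, dissociated and made into 1 library of 3′ tags. The mice were adult and no treatment or genotype difference was compared, so the 4 libraries are 4 groups of 1 sample from the same animals. Region and library therefore cannot be told apart, and no test between regions was made.

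VEGF-A is a secreted growth factor that acts on endothelial cells, the cells that line blood vessels. KDR (VEGFR2) is its main signaling receptor there, FLT1 (VEGFR1) binds it tightly and can hold it away from KDR, and NRP1 is a co-receptor that also binds semaphorins. Angiopoietin 1 activates the endothelial receptor TEK (TIE2) and steadies vessels, angiopoietin 2 can act against it, and TIE1 is a partner of TEK with no well-defined ligand of its own. The pathway is thus usually pictured as one in which cells around a vessel send and the vessel wall receives.

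Expression was counted as unique molecular identifiers (UMIs), which mark single captured transcripts. Levels are given as UMIs of a gene per 1000000 UMIs of a group of cells (UPM), with the exact 95% Poisson interval in parentheses. Ratios have an exact conditional binomial 95% interval. Both cover counting error only, not differences between animals or dissections. The caput library held 1433 cells, the corpus 2325, the cauda 1616 and the vas deferens 3506, with 4408989 to 10744928 UMIs per library and a median of 1433 to 2207 UMIs per cell. The authors' populations were used as deposited: 34 in all, within 7 cell types. Since the counts themselves defined these populations, a difference between them is a description and not a test.

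The 245 endothelial cells (50 caput, 39 corpus, 12 cauda and 144 vas deferens) carried all 10 of the listed endothelial markers, among them *Pecam1* and *Cdh5*, at a summed 12082 UPM. *Tm4sf1* alone gave 7690 UPM of this sum. Basal cells came next with 795 UPM for the same list, of which *Tm4sf1* gave 702. All 6 listed lymphatic markers were detected in endothelial cells too, at 103 UPM together, so the group held cells with lymphatic transcripts that the deposited names did not separate.

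Because *Kdr* and *Flt1* were far higher in endothelial cells than in other cells and *Vegfa* was found in every cell type, the bases just upstream of their starts are shown, from RefSeq on GRCm38.p6. No GENCODE exon reaches into the bases shown, although the widest RefSeq spans of *Kdr* and *Flt1* reach further upstream. The capitals mark GGAA or its reverse complement TTCC, the core letters of ETS factor sites, on either strand.
*Vegfa*, chr17:46032378-46032627, minus strand: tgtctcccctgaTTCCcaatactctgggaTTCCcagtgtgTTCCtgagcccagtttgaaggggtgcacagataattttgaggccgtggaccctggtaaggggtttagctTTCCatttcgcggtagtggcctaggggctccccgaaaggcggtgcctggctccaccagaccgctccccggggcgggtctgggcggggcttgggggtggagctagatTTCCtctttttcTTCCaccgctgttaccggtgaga
*Kdr*, chr5:75978459-75978705, minus strand: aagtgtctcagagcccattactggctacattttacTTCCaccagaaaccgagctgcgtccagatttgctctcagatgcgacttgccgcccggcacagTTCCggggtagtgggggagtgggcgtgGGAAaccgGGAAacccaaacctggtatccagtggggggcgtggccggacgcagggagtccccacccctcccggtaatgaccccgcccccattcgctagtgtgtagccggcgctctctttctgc
*Flt1*, chr5:147726012-147726261, minus strand: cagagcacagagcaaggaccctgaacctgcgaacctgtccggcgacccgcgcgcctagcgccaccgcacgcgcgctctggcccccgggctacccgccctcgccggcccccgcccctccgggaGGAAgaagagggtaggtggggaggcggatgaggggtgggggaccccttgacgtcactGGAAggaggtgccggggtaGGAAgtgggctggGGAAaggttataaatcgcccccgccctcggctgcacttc
The 250 bases upstream held 6 of these cores in *Vegfa*, 4 in *Kdr*, 4 in *Flt1*, 4 in *Nrp1*, 2 in *Tek* and 7 in *Tie1*, whose window is not shown because 212 of its bases lie in exons. The widest RefSeq spans of *Nrp1* and *Tek* also reach into the bases counted. Over 27025 promoters with a window of the same length the median was 3, and 33.4% held at least 4. The count of cores thus did not separate the endothelial receptors from *Vegfa*, and a match is a run of letters, not a known site. The *Flt1* window also held TATAAA once, a run found on either strand in 12.97% of promoters. Promoters of *Angpt1* and *Angpt2* were not matched.

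Of the 8 genes, 5 were at least 4 times as high in 1 cell type as in every other: *Kdr*, *Flt1*, *Tek* and *Tie1* in endothelial cells and *Angpt1* in stromal cells. Over all genes with at least 20 UMIs in at least 1 type, 10.6% (1366 of 12868) met this rule in any type. Among genes with at least 20 UMIs in endothelial cells, 3.63% (183 of 5038) met it there. For stromal cells the share was 1.73% (185 of 10692). *Vegfa*, *Nrp1* and *Angpt2* did not meet it. *Angpt2* could not, since its highest type held fewer than 20 UMIs.

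**Figure D1:**
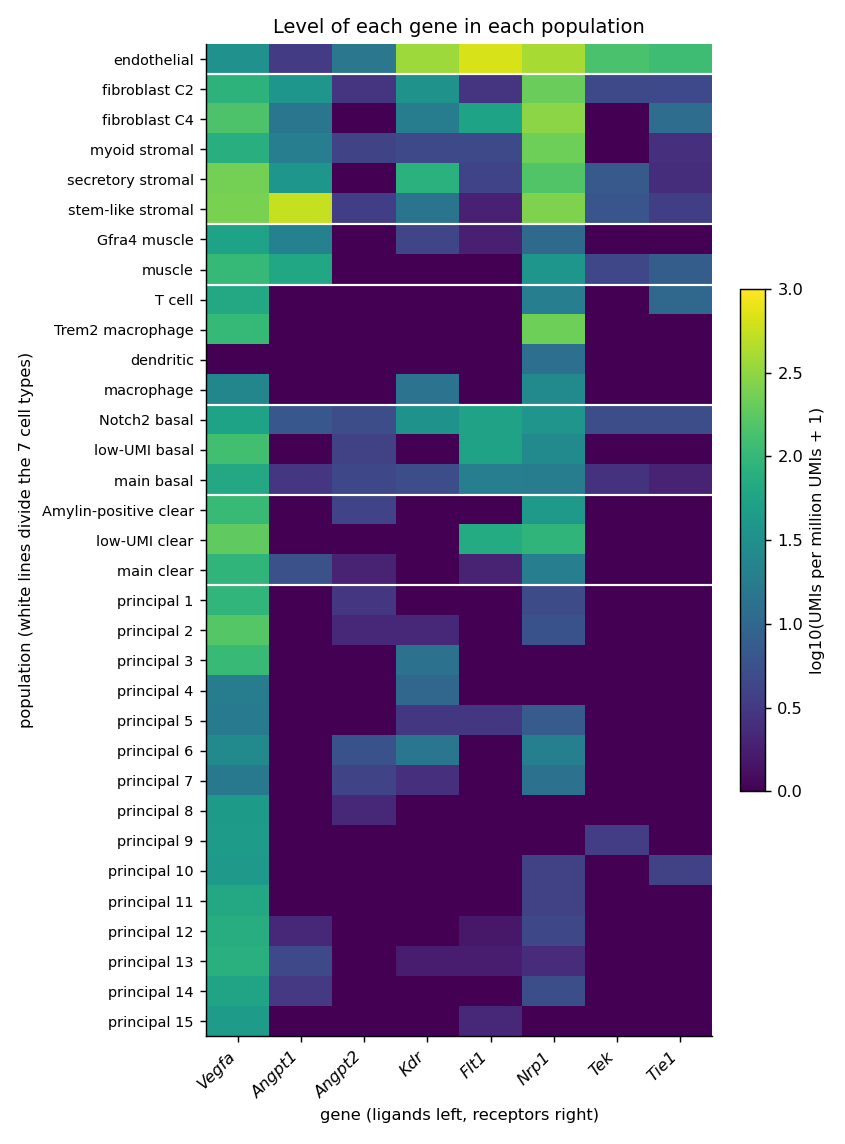
Levels of the 8 genes (columns) in the 33 populations with at least 20 cells (rows, grouped by cell type), as log10 of UMIs per 1000000 UMIs plus 1. *Kdr*, *Flt1*, *Tek* and *Tie1* peak in the endothelial row, *Angpt1* peaks in stem-like stromal cells at 543 UPM, and *Vegfa* is spread over nearly all rows.

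Among the ligands, *Vegfa* (chromosome 17, 46016993 to 46032377) had 2143 UMIs in 1409 cells and was the broadest. Its level was 128 UPM (119 to 137) in stromal cells, 95.8 (80.6 to 113) in clear cells, 65.3 (59.1 to 72.0) in basal cells and 65.2 (60.2 to 70.6) in principal cells. Muscle cells had 63.6 UPM (51.6 to 77.6), immune cells 37.8 (23.7 to 57.2) and endothelial cells 32.3 (21.3 to 47.0). Endothelial cells, which carry the receptors, were thus last in the order, although they could not be told from immune cells by counting error. Basal, principal and muscle cells, whose neighbors differed by at most 1.03-fold, could not be told apart either. Stromal cells exceeded clear cells 1.33-fold (1.11 to 1.61), but without the vas deferens library that ratio was 0.976.

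The cell type with the most *Vegfa* was principal cells in caput and stromal cells in the vas deferens. In between no single type stood highest. The ratio of stromal to clear cells was 1.003 (0.739 to 1.39) in corpus and 0.854 (0.600 to 1.23) in cauda. In principal cells, the absorptive and secretory cells of the epithelium, *Vegfa* was 119 UPM (103 to 136) in caput, 16.9 (10.8 to 25.2) in corpus, 43.7 (34.4 to 54.7) in cauda and 68.1 (60.9 to 76.0) in vas deferens. The caput was highest and the corpus lowest, and no 2 of these intervals overlapped. Caput principal cells had 7.03 times (4.60 to 11.2) the corpus level, and 12.1% of 6986 genes were at least 2 times as high in caput as in corpus principal cells. Within caput, the level was 162 UPM (136 to 192) in principal 2, 108 (64.2 to 171) in principal 3 and 94.1 (69.4 to 125) in principal 1. High *Vegfa* was thus not limited to 1 of the 3 main caput populations.

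Basal cells, which lie under the epithelium, ran in another order. Their *Vegfa* level was 45.4 UPM (34.9 to 57.9) in caput, 47.5 (39.3 to 56.9) in corpus, 84.7 (67.3 to 105) in cauda and 105 (88.5 to 124) in vas deferens. The first pair and the last pair overlapped within themselves and not with each other. In main basal cells alone, cauda and vas deferens together had 2.49 times (1.98 to 3.13) the level of caput and corpus. Clear cells, which acidify the lumen, differed less, from 71.4 UPM (43.0 to 112) in caput to 113 (66.1 to 182) in the vas deferens, and all 4 intervals overlapped.

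**Figure D2:**
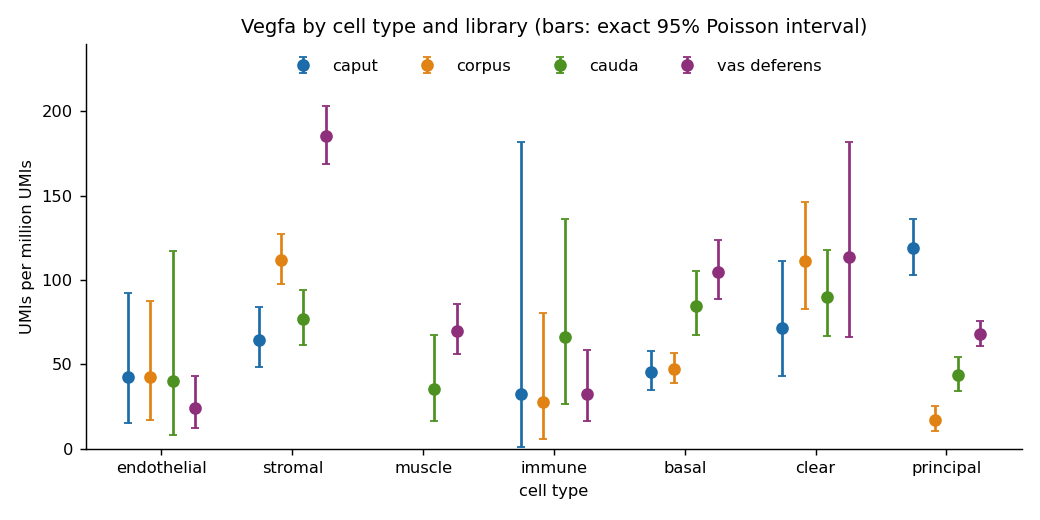
*Vegfa* level (UMIs per 1000000 UMIs) in each cell type (horizontal axis) and library (color), for groups of at least 10 cells. Bars are exact 95% Poisson intervals. Principal cells are highest in caput (119 UPM) and lowest in corpus (16.9 UPM), and stromal cells are highest in the vas deferens (185 UPM).

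Stromal cells had 64.6 UPM (48.5 to 84.3) of *Vegfa* in caput, 112 (97.5 to 128) in corpus, 76.7 (61.7 to 94.3) in cauda and 185 (169 to 203) in vas deferens. The vas deferens was 2.03 times (1.76 to 2.33) the 3 epididymal libraries together, where 10.4% of 8310 genes were at least 2 times as high in vas deferens stroma. The order was different within a population. Myoid stromal cells, which carry contractile genes, had 59.3 UPM (43.2 to 79.3) in caput and 105 (90.1 to 122) in corpus. They had 66.3 (49.5 to 86.9) in cauda and 39.4 (25.3 to 58.7) in vas deferens. The vas deferens was there the lowest, but its interval overlapped those of caput and cauda and not that of corpus. The vas deferens stroma was made up largely of 517 stem-like stromal cells with 244 UPM (216 to 276) and 213 secretory stromal cells with 238 UPM (202 to 278). Of its 1015 stromal cells, 209 were myoid. The order seen in the stroma as a whole was thus not that of its myoid cells.

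Stromal cells held 38.7% of all *Vegfa* UMIs (36.6 to 40.8, Clopper-Pearson) and 25.0% of all cells. Their share was 15.5% in caput, 52.0% in corpus, 28.3% in cauda and 44.2% in the vas deferens. Principal cells held 58.7%, 5.67%, 23.9% and 30.3% of the *Vegfa* UMIs of these libraries in the same order, while they were 51.4%, 39.96%, 57.6% and 38.8% of the cells. Endothelial cells held 0.943% to 1.72%. A share of UMIs depends on the number of cells recovered as well as on the level in each cell.

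**Figure D3:**
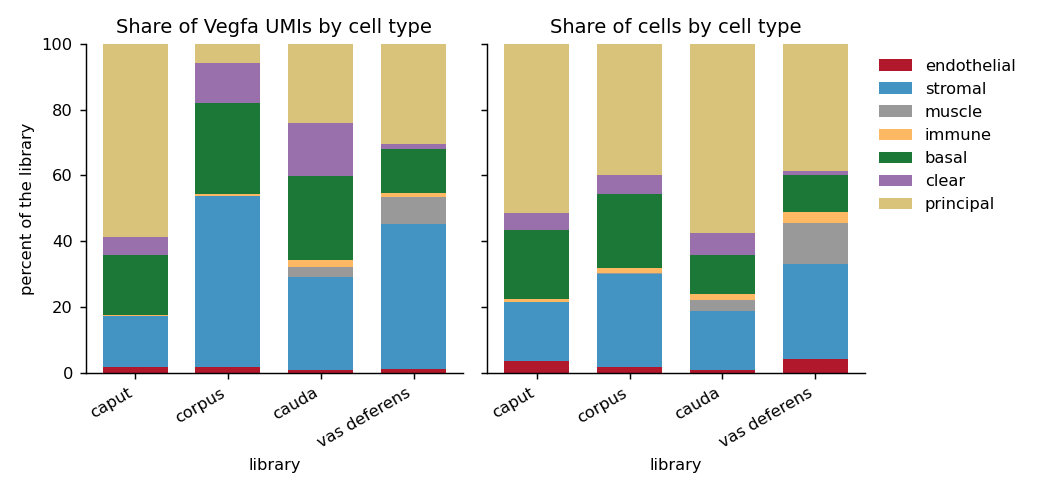
Share of *Vegfa* UMIs (left) and of cells (right) in each cell type, as percent of each library on the vertical axis. Principal cells hold 58.7% of *Vegfa* UMIs in caput and 5.67% in corpus, with 51.4% and 39.96% of the cells.

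*Angpt1* (chromosome 15, 42424667 to 42676977), the activating ligand of TEK, was far more restricted. Of its 811 UMIs, 739 (91.1%) lay in stromal cells, and 778 came from the vas deferens library. The stromal level was 114 UPM (106 to 122), against 27.5 (19.8 to 37.2) in muscle cells, a ratio of 4.14 (3.03 to 5.79). By library, stromal cells had 4.78 UPM (1.303 to 12.2) in caput, 7.11 (3.89 to 11.9) in corpus, 6.82 (2.94 to 13.4) in cauda and 284 (264 to 306) in vas deferens. The 3 epididymal libraries overlapped and the vas deferens stood 43.5 times (29.4 to 67.0) above them together. Without the vas deferens the ratio of stromal to muscle cells was 0.574. It rested on 26 stromal UMIs and, in muscle cells, on 2 UMIs in cauda and 1 in corpus, so no order could be read.

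Most of it came from stem-like stromal cells, the mesenchymal population found mainly in the vas deferens, with 620 UMIs and 543 UPM (501 to 588). *Angpt1* was 1 of 17 genes among 5984 (0.284%) at least 4 times as high in this population as in every other stromal population. The paper gives *Angpt1* among the stem cell markers of this population, so this share is a description and not independent of its name. After each cell was thinned to 1000 UMIs, 33.9% (29.4 to 38.6) of 425 stem-like stromal cells had a UMI of *Angpt1*, against 2.39% of myoid stromal cells and 0 of 871 main basal cells. The few stem-like stromal cells of the epididymis had 1 UMI in 16 corpus cells and 1 in 11 cauda cells, which gives 37.3 UPM (0.945 to 208) and 49.4 UPM (1.25 to 275). Vas deferens cells of the same population had 568 UPM (524 to 615).

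The vas deferens was also higher within other populations. Myoid stromal cells had 3.95 UPM in caput, 6.53 in corpus, 1.27 in cauda and 90.4 (68.1 to 118) in vas deferens, 19.5 times (10.8 to 37.1) the epididymal level. Fibroblast C2 had 10.1 UPM in corpus, 15.6 in cauda and 114 (62.5 to 192) in vas deferens. Fibroblast C4 did not show this at its depth, with 1 UMI in each library. In other cells of the vas deferens library, *Angpt1* was 9.62 UPM in basal cells and 1.71 in principal cells, with 0 UMIs in 144 endothelial and 0 in 118 immune cells. Clear cells of that library had 33.4 UPM, from 5 UMIs of which 4 lay in 1 cell. The authors had already subtracted ambient RNA from these counts, so they do not measure free RNA. The part of free RNA in these levels was not tested.

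**Figure D4:**
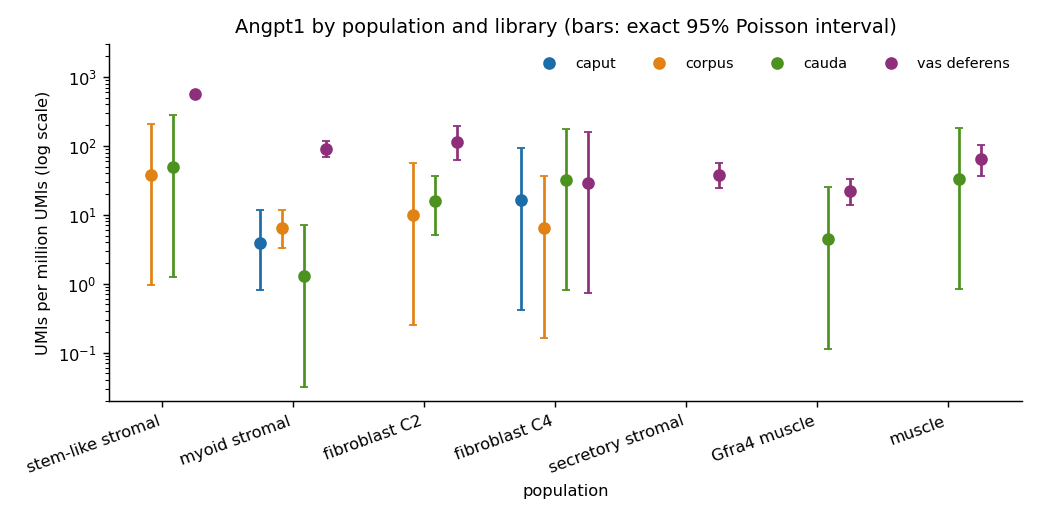
*Angpt1* level (UMIs per 1000000 UMIs, log scale) in stromal and muscle populations (horizontal axis) by library (color), for groups of at least 10 cells. Bars are exact 95% Poisson intervals. The vas deferens point is the highest in stem-like stromal (568 UPM), myoid stromal (90.4 UPM) and fibroblast C2 cells (114 UPM).

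*Angpt2* (chromosome 8, 18690263 to 18741562), which is made by activated endothelium, was close to the limit of these data, with 59 UMIs in 8880 cells. Endothelial cells had the highest level, 14.4 UPM (7.42 to 25.1) from 12 UMIs in 11 cells, with 5 UMIs in caput, 4 in corpus, 0 in cauda and 3 in vas deferens. Basal cells had 3.56 UPM (2.23 to 5.39) from 22 UMIs, of which 6 came from 1 corpus cell, and stromal cells had 2.47 (1.41 to 4.00). The endothelial level was 4.04 times (1.82 to 8.52) the basal level. This ratio was 2.41 without the caput, 6.33 without the corpus and 6.72 without the vas deferens, and 8.88 as a mean over cells or 9.30 with the deposited size factors, and no order of regions could be read at this depth.

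The receptors had their highest levels in endothelial cells. These cells, 2.76% of all cells, held 74.5% of the UMIs of *Flt1*, 63.8% of *Kdr*, 81.4% of *Tek*, 78.2% of *Tie1* and 16.8% of *Nrp1*. *Kdr* (chromosome 5, 75932827 to 75979072) had 365 UPM (325 to 408) there and 16.5 (13.5 to 19.9) in stromal cells, a ratio of 22.1 (17.7 to 27.9). For *Flt1* (chromosome 5, 147561604 to 147726438) the endothelial level was 664 UPM (610 to 722) and the next was 23.9 (20.2 to 28.1) in basal cells, 27.8-fold (23.1 to 33.5) lower. *Tek* (chromosome 4, 94739086 to 94874976) had 136 UPM (113 to 164) against 1.94 (1.003 to 3.39) in basal cells, a ratio of 70.3 (38.7 to 140). For *Tie1* (chromosome 4, 118471191 to 118489849) the values were 116 UPM (94.2 to 142) and 2.31 (1.29 to 3.81) in stromal cells, 50.2-fold (29.0 to 93.2) apart. With the deposited size factors these 4 ratios were 12.1 for *Kdr*, 16.4 for *Flt1*, 24.5 for *Tek* and 28.8 for *Tie1*, and as means over cells 13.8, 17.1, 28.6 and 19.1. Without the vas deferens library the *Kdr* ratio was 52.6. The endothelial level was the highest of all cell types for these 4 receptors in each of the 4 libraries. Counting at the 3′ end per gene does not separate the soluble from the membrane form of FLT1.

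After thinning to 1000 UMIs, 38.5% (31.7 to 45.6) of 200 endothelial cells had a UMI of *Flt1*, 24.5% (18.7 to 31.1) of *Kdr*, 22.5% (16.9 to 28.9) of *Nrp1*, 13.5% (9.09 to 19.0) of *Tek* and 12.0% (7.84 to 17.3) of *Tie1*. Without thinning the shares were 54.7%, 44.9%, 45.3%, 29.0% and 29.4%. Clear cells, which should lack vessel receptors, had 0 of 238 thinned cells with *Flt1*, *Kdr*, *Tek* or *Tie1*. Such a count allows up to 1.26%. At full depth 3 of 348 clear cells had *Flt1*. For *Nrp1* the share of clear cells was 2.52%. Before thinning the median depth was 2590 UMIs in endothelial and 4430 in clear cells.

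Single endothelial cells often carried several receptors. At full depth, 140 of 245 cells (57.1%) had UMIs of at least 2 of the 5 receptors, 21 had all 5 and 60 had 0. The 60 cells with 0 had a median of 995.5 UMIs, against 2590 over all endothelial cells. Of 110 cells with *Kdr*, 91 also had *Flt1*. Of 71 cells with *Tek*, 59 had *Flt1* and 36 had *Tie1*.

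By library, endothelial *Flt1* was 741 UPM (606 to 898) in caput, 797 (666 to 946) in corpus, 1151 (921 to 1422) in cauda and 512 (449 to 583) in vas deferens. The vas deferens was the lowest and its interval overlapped none of the others. *Kdr* was 487 UPM (379 to 617), 329 (247 to 429), 442 (304 to 620) and 328 (277 to 385) in the same order, and every pair of intervals overlapped, although the ratio of caput to corpus was 1.48 (1.02 to 2.16). For *Tek* the levels were 56.5 UPM (24.4 to 111), 97.4 (55.6 to 158), 187 (102 to 314) and 167 (132 to 209). *Tie1* had 127 UPM (75.3 to 201), 54.8 (25.0 to 104), 53.5 (14.6 to 137) and 145 (112 to 185).

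*Flt1* was thus lower, and *Tek* and *Tie1* were higher, in the vas deferens than in the 3 epididymal libraries together. The ratio of vas deferens to epididymis was 0.606 (0.510 to 0.719) for *Flt1* and 0.7997 (0.635 to 1.01) for *Kdr*, whose interval held 1. It was 1.67 (1.1202 to 2.54) for *Tek* and 1.78 (1.15 to 2.83) for *Tie1*. The cauda level of *Tek* was above that of the vas deferens. The vas deferens interval overlapped those of corpus and cauda for *Tek* and those of caput and cauda for *Tie1*. No ratio reached 2-fold, while 11% of 3276 genes in endothelial cells were at least 2 times as high in the vas deferens and 11.7% of 2941 at least 2 times as high in the epididymis. That no receptor passed 2-fold depended on single libraries, since the ratio was 2.13 for *Tek* without the cauda and 2.67 for *Tie1* without the caput. The cauda values rest on 12 cells, in which 1 cell gave 27.9% of the *Flt1*, 35.7% of the *Tek* and 50% of the *Tie1* UMIs, and in corpus 1 cell gave 23.7% of the *Flt1* UMIs.

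A UMI of a lymphatic marker was found in 3 of 50 endothelial cells in caput, 2 of 39 in corpus, 2 of 12 in cauda and 28 of 144 in vas deferens. The vas deferens (19.4%) and the cauda (16.7%) could not be told apart on 12 cauda cells. Cells with such a UMI were deeper, with a median of 3442 UMIs against 2507. The 35 such cells had 200 UPM of *Tek*, and the other 210 had 124, a ratio of 1.62 (1.02 to 2.51). For *Tie1* the levels were 165 and 106 UPM (ratio 1.55, 0.924 to 2.50), for *Flt1* 687 and 660, and for *Kdr* 351 and 368. With these cells left out, the ratio of vas deferens to epididymis was 1.71 for *Tek* and 1.58 for *Tie1*.

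**Figure D5:**
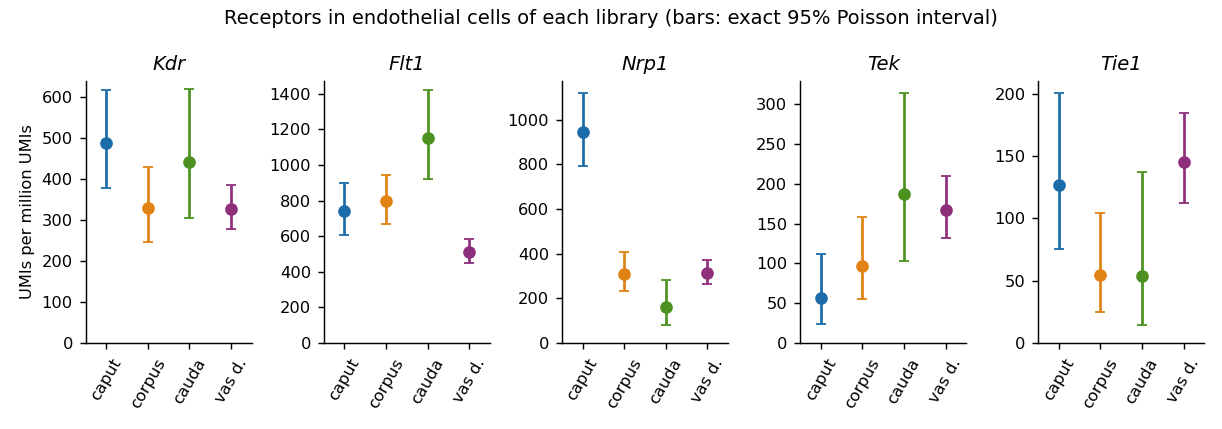
Level of each receptor (UMIs per 1000000 UMIs) in endothelial cells of each library (horizontal axis), with exact 95% Poisson intervals and a separate scale per gene. *Nrp1* stands out in caput at 946 UPM, *Flt1* is lowest in the vas deferens at 512 UPM, and *Tek* and *Tie1* have wide intervals in the epididymal libraries.

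*Nrp1* (chromosome 8, 128358591 to 128505476) was both an endothelial and a stromal gene. Its level was 407 UPM (365 to 453) in endothelial cells and 220 (209 to 232) in stromal cells, a ratio of 1.85 (1.64 to 2.08). Immune cells followed with 48.1 UPM (32.0 to 69.5), and principal cells were last with 3.87 (2.72 to 5.33). In endothelial cells it was 946 UPM (793 to 1121) in caput, 310 (231 to 408) in corpus, 161 (83.0 to 281) in cauda and 315 (265 to 371) in vas deferens. The caput was 3.19 times (2.54 to 3.98) the other 3 libraries together, or 2.85 times without the cell that held the most *Nrp1*. It was at least 2 times every other library, as were 5.27% (62 of 1176) of genes in endothelial cells. Without the caput, the ratio of vas deferens to epididymis for *Nrp1* went from 0.608 (0.487 to 0.758) to 1.19.

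Caput endothelial cells also held more transcripts of the cells around vessels. The list of 7 pericyte markers summed to 826 UPM in caput, 268 in corpus, 13.4 in cauda and 39.6 in vas deferens, and the list of 6 muscle markers to 1906, 894, 134 and 235 UPM. The endothelial list was lowest in caput, at 7915 UPM, against 10736 to 13986 elsewhere. Pericyte UMIs lay in 7 of the 50 caput cells, and *Nrp1* in the other 43 was 1042 UPM (868 to 1241). In those 7 cells it was 386 UPM. The part of pericyte or muscle RNA in the caput level was not tested.

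In the stroma, *Nrp1* was found in all 5 populations. Fibroblast C4 had 302 UPM (242 to 374), stem-like stromal cells 259 (231 to 291), myoid stromal cells 217 (202 to 232), fibroblast C2 206 (170 to 248) and secretory stromal cells 151 (123 to 183). By library the stromal level was 268 UPM (234 to 305) in caput, 237 (216 to 260) in corpus, 150 (129 to 174) in cauda and 224 (205 to 243) in vas deferens. The cauda had the lowest level in stromal cells, and also in endothelial cells, where its interval overlapped those of corpus and vas deferens. Among immune cells, *Trem2* macrophages had 216 UPM (126 to 347) from 17 UMIs in 26 cells, and the other macrophages 26.1 (11.3 to 51.4) from 8 UMIs in 104 cells, a pair chosen after values were seen.

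Outside endothelial cells, *Kdr* was highest in secretory stromal cells. This population, of which 213 of 226 came from the vas deferens library, had 81.4 UPM (61.3 to 106) from 55 UMIs in 39 cells, with at most 3 UMIs in a cell. Fibroblast C2 had 32.6 UPM (19.3 to 51.5) from 18 UMIs in 9 cells, and stem-like stromal cells 13.1 (7.36 to 21.7) from 15 UMIs in 13 cells. Of the 39 secretory stromal cells with *Kdr*, 26 (66.7%) had a UMI of the 10 listed endothelial markers, and 100 of the other 187 (53.5%) did. Without *Emcn*, *Cd34* and *Tm4sf1*, which were left out after values were seen, the counts were 0 of 39 and 10 of 187. The part of endothelial RNA in this value was not tested. Secretory stromal cells had 2 UMIs of *Flt1*, 4 of *Tek* and 1 of *Tie1*. Over all stromal cells *Kdr* was 30.3 UPM in the vas deferens and 7.79 in the epididymal libraries together, a ratio of 3.89 (2.53 to 6.11). Notch2 basal cells had 24 *Kdr* UMIs, but 18 of these came from 1 cell.

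For *Flt1*, basal cells were the second site, with 148 UMIs in 85 of 1412 cells. Their level was 17.01 UPM (10.9 to 25.3) in caput, 23.9 (18.2 to 30.9) in corpus, 23.0 (14.4 to 34.8) in cauda and 31.8 (23.0 to 42.9) in vas deferens, with overlapping intervals, and 16 of the 24 caput UMIs lay in 1 cell. In main basal cells, 51 of 92 *Flt1* UMIs lay in cells without a UMI of the 7 markers that remain without those 3, at 10.98 UPM in those cells. Of the 58 main basal cells with *Flt1*, 17 (29.3%) had a UMI of those 7 markers, and 61 of the other 859 (7.10%) did. In Notch2 basal cells the counts were 7 of 13 with *Flt1* and 8 of 152 without. The endothelial marker list itself summed to 795 UPM in basal cells, with all 10 of its genes detected. Of this sum 702 UPM was *Tm4sf1*, found in 42.8% of basal cells, while *Pecam1* had 9.54 UPM and *Cdh5* 10.0. Clear cells had 2.74 UPM (0.746 to 7.01) and principal cells 0.418 (0.114 to 1.07). The part of endothelial RNA in the basal value was not tested.

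For a map of possible senders and receivers, only populations with at least 20 cells were used. A population was counted for a gene when UMIs were found in 20% or more of its cells. *Vegfa* was then sent by 9 populations: stem-like, secretory and myoid stromal cells, fibroblast C2, main basal, main clear and Amylin-positive clear cells, principal 1 and principal 12. *Kdr*, *Flt1* and *Tek* were each received by endothelial cells only, and *Nrp1* by 7 populations, among them all 5 stromal populations and *Trem2* macrophages. *Angpt1* had 1 sender, stem-like stromal cells, and *Angpt2* had 0. The 5 ligand and receptor pairs made 82 links, of which *Vegfa* with *Nrp1* made 63, *Vegfa* with *Kdr* 9, *Vegfa* with *Flt1* 9 and *Angpt1* with *Tek* 1. These counts follow depth. After thinning to 1000 UMIs 7 links were left, and stem-like stromal cells were then the only population past the limit for *Vegfa* and none was for *Tek*. The map holds transcripts in dissociated cells and shows no contact or binding.

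The other genes of the pathway were read from fixed lists. Of 4 other VEGF ligands, 1 passed the rule of 4 times every other type. It was passed in some type by 10.6% of genes with at least 20 UMIs in any type. In stromal cells it was passed by 1.73% of genes with at least 20 UMIs there. The ligand was *Figf*, which encodes VEGF-D, with 97.4 UPM (90.0 to 105) in stromal and 21.6 in muscle cells (ratio 4.50, 3.17 to 6.598). *Vegfb* was 81.4 UPM in clear and 71.5 in muscle cells, and *Pgf*, the placental growth factor that binds FLT1, was 46.7 in stromal and 39.5 in basal cells. Of the other receptors, the co-receptor *Nrp2* had 242 UPM (210 to 278) in endothelial, 139 in immune and 110 in muscle cells. *Flt4*, the lymphatic VEGF receptor, had 16 UMIs in endothelial cells.

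Of 19 inhibitors and modulators, 15 had enough UMIs and 2 were at least 4 times as high in endothelial cells as in every other type. Over all genes with enough UMIs, 183 of 12868 met this rule in endothelial cells. *Ptprb*, a phosphatase that acts on TEK, had 316 UPM (279 to 357) there and 3.56 in basal cells, and *Plxnd1*, a semaphorin receptor, had 79.0 (61.1 to 101) and 18.9 in immune cells. A further 3 were highest in endothelial cells without meeting the rule: *Adamts1* (1355 UPM, and 953 in stromal cells), *Plxna2* (123, and 38.0 in muscle cells) and *Sema3f* (27.5, and 11.6 in basal cells). In other types 3 met it, namely *Svep1* with 49.9 UPM in stromal cells, *Vash2* with 46.5 in principal cells and *Sema3b* with 159 in clear cells. In some type 5 of 15 thus met it, against 10.6% of the 12868 genes with enough UMIs. *Thbs1*, whose product restrains vessel growth, was highest in basal cells at 1349 UPM and did not meet it.

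Of 15 endothelial targets and effectors, 14 had enough UMIs and 9 met the rule in endothelial cells, against 183 of the 12868 genes with enough UMIs. Among them were *Cdh5*, the adhesion molecule of endothelial junctions, with a ratio to the next type of 65.1 (50.0 to 86.1), and the tip cell gene *Esm1*, with 57.9 (30.8 to 120). *Nos3*, the endothelial nitric oxide synthase, had a ratio of 41.4 (13.6 to 206). Of 13 ETS and related factors of endothelium, 11 had enough UMIs and 5 met it: *Erg*, *Elk3*, *Sox7*, *Sox17* and *Sox18*. None of the 11 oxygen-sensing genes with enough UMIs met it in endothelial cells, though *Hif1a* (553 UPM) and *Epas1* (233 UPM) were highest in endothelial cells. *Adm*, the vessel-dilating peptide adrenomedullin, was 1199 UPM in basal cells and 135 in endothelial cells, a ratio of 8.86 (7.36 to 10.8), and met the rule in basal cells.

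Over the 33 populations with at least 20 cells, the genes with the pattern most like that of *Tek* were *Cyyr1*, *Cdh5* and *She* (Pearson r of log2(UPM + 10) 0.961, 0.958 and 0.955), and for *Tie1* they were *Erg*, *Unc45b* and *Rbp7* (0.958, 0.954 and 0.951). *Flt1* was most like *Robo4*, *Grrp1* and *Eltd1* (0.909, 0.893 and 0.893). For *Kdr* they were *Cyp2d22*, *Thbd* and *Ebf1* (0.893, 0.837 and 0.836), and for *Nrp1* *Stard13*, *Tcf4* and *Socs3* (0.919, 0.881 and 0.874). *Angpt1* was most like *Nr2f1*, *Scara5* and *Osr1* (0.9502, 0.945 and 0.938). For *Vegfa*, which had no such sharp site, the values were lower, at 0.762 (*Tmem50a*), 0.728 (*Qtrt1*) and 0.721 (*Rae1*), and for *Angpt2* they were 0.829 (*Esam*), 0.807 (*Fam101b*) and 0.795 (*She*). Between members, *Tek* and *Tie1* were the most alike (0.911), and *Vegfa* had 0.052 with *Kdr* and 0.108 with *Flt1*. These values describe populations that share 4 libraries, and in endothelial genes they rest largely on 1 population.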

How the data were processed

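The deposited file holds whole UMI counts of 16892 genes in 8880 cells. The authors aligned the reads to mm10 (GRCm38, HISAT2 2.0.4 in the submitters' processing notes), counted UMIs on RefSeq genes, kept cells by total UMIs and subtracted ambient RNA with a modified SoupX, which took 3.54% of the UMIs. The deposited table of cells gives library, UMIs before that step, a size factor score from scran per cell as the authors made it, and the cluster names used here without re-clustering. Populations were matched to the study's numbering by their cell counts. No columns of other samples were present.

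The 8 genes and all gene lists were chosen with earlier results of these data known. Besides the 8 genes and the lists, the text names, for each of them, the 3 genes with the highest Pearson correlation of log2(UPM + 10) over populations with at least 20 cells, among genes with at least 100 UMIs. UMIs were summed over cells, and a count of 0 allows up to 3 UMIs. A gene entered a rule of fold with at least 20 UMIs in the higher group, and groups with 0 UMIs were raised to 3. On simulated data with 200 genes changed by known folds, these rules were tested first. Shares were taken after drawing 1000 UMIs per cell at random.

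Of 8837 barcodes, 43 occurred in more than 1 library (86 cells), which were kept. Doublets were called per library from simulated doublets. In all, 178 cells (2.00%) were called, with 46.1% of simulated doublets recovered, and they were kept in the main values. Alternatives covered cells with at least 1000 UMIs, means over cells or libraries, the deposited size factors, doublets and single libraries left out, and other thresholds. Intervals were computed with scipy 1.17.1 and doublets with scikit-learn 1.9.0, in Python 3.11.15 with matplotlib 3.10.9, pandas 2.3.3 and numpy 2.4.6. The bulk libraries and protein sequences were not used here.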

Additional observations from a re-analysis of the deposited data

Results flagged for a closer look

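The order of cell types for *Vegfa* turned between libraries, and the difference between libraries was not tested, since each region had 1 library. The ratio of stromal to principal cells was 0.543 (0.395 to 0.736) in caput, 6.61 (4.33 to 10.5) in corpus, 1.76 (1.28 to 2.41) in cauda and 2.72 (2.35 to 3.15) in vas deferens. Basal cells had 0.381 times (0.283 to 0.507) the principal level in caput, 2.81 (1.80 to 4.55) in corpus, 1.94 (1.40 to 2.69) in cauda and 1.54 (1.26 to 1.89) in vas deferens. For clear cells over principal cells the ratio was 0.601 (0.354 to 0.962) in caput, 6.58 (3.99 to 11.2) in corpus and 2.06 (1.42 to 2.96) in cauda. In each case the caput was the library in which principal cells were the higher.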

How the results depend on the processing

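No paired analysis was possible because each region had 1 library and the labels give no replicate numbers across groups. The 4 libraries limit every comparison of regions to counting error. Levels rest on 245 endothelial cells, 12 of them in cauda. The 28 main values were recomputed under 88 planned choices and 15 chosen after seeing the data, which gave 191 alternative values. Of these, 134 stayed within counting error of the main value or, for counts of links and genes, within a set fold of it. A further 54 moved and 3 crossed a ratio of 1, judged by the value alone. The causes were not tested except where cells or libraries were left out.

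The 3 values that crossed 1 were not weighed against counting error. Without the vas deferens, the ratio of the highest cell type to the next was 0.976 for *Vegfa*, which is close to 1. For *Angpt1* it was 0.574, with 2 muscle UMIs in cauda and 1 in corpus. Without the caput, the *Nrp1* ratio of vas deferens to epididymis in endothelial cells was 1.19. With single libraries left out, the ratio of the highest type to the next ran from 0.976 to 1.52 for *Vegfa*, 0.574 to 5.93 for *Angpt1*, 2.41 to 6.72 for *Angpt2*, 18.4 to 52.6 for *Kdr* (the last without the vas deferens), 25.0 to 38.9 for *Flt1*, 1.39 to 2.37 for *Nrp1*, 57.3 to 96.5 for *Tek* and 40.5 to 71.5 for *Tie1*. The number of genes at 4 times every other type was 4 to 5, the links 42 (without the vas deferens) to 73, and the stromal share of *Vegfa* 33.4% to 43.2%. The ratio of vas deferens to epididymis ran from 0.695 to 0.900 for *Kdr*, 0.565 to 0.664 for *Flt1*, 0.466 to 1.19 for *Nrp1*, 1.33 to 2.13 for *Tek* and 1.43 to 2.67 for *Tie1*.

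With deposited size factors, the ratio of highest to next was 1.76 for *Vegfa*, 9.30 for *Angpt2*, 12.1 for *Kdr*, 16.4 for *Flt1*, 1.55 for *Nrp1*, 24.5 for *Tek* and 28.8 for *Tie1*. With means over cells it was 8.88 for *Angpt2*, 13.8 for *Kdr*, 17.1 for *Flt1*, 28.6 for *Tek* and 19.1 for *Tie1*, and with a mean over libraries 29.4 for *Kdr*. Between populations in place of types it was 1.08 for *Vegfa*, 9.14 for *Angpt1*, 4.49 for *Kdr*, 9.67 for *Flt1*, 1.35 for *Nrp1*, 23.1 for *Tek* and 10.9 for *Tie1*. Links numbered 200 at 10% of cells, 14 at 30% and 7 after thinning. The stromal share of *Vegfa* was 34.99% as a mean over libraries. As means over cells the *Nrp1* ratio of vas deferens to epididymis was 0.443 and that of caput to the other libraries, an alternative chosen after seeing the data, 3.98. The percent of endothelial cells with a UMI, with thinning to 500 UMIs, without thinning and with at least 2 UMIs required, was 13.8, 44.9 and 7 for *Kdr*, 24.6, 54.7 and 14.5 for *Flt1*, 14.3, 45.3 and 8.5 for *Nrp1* and 4.46, 29.0 and 0.5 for *Tek*. For *Tie1* it was 29.4 without thinning and 0 with at least 2 UMIs, for *Vegfa* 9.39 and 0, and for *Angpt2* 0 at 500 UMIs and 0.5 with at least 2.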
